A study of Homo sapiens with 2 samples.

Results

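The genes described here encode the unfolded protein response of the endoplasmic reticulum (ER), the compartment in which secreted and membrane proteins are folded. They were chosen by name from a list of 34 genes, and a gene was kept if it was listed in both libraries and reached 1 FPKM (fragments per kilobase of transcript, scaled to library size) in either. That left 32 of the 34, out of 14377 genes measured by the same minimum. ERN1, which encodes the sensor kinase IRE1, was well below the minimum. It had 0.21 FPKM under the FZD2 shRNA and 0.29 FPKM under the control shRNA, on 7 and 10 reads. EIF2AK3 was the member nearest the minimum, at 0.57 and 2.35 FPKM. DERL3 was listed in neither file and was not analysed here.

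Poly(A)-selected RNA was taken from the human liver cancer line SNU449 7 days after a lentivirus delivered a short hairpin RNA (shRNA), which both groups carried. One library had an shRNA against FZD2, a frizzled receptor for Wnt ligands, and the other a control shRNA, and the hairpin sequences were not used here. Each group held 1 library, so no difference could be tested against replicate error. The libraries held 8234592 (FZD2 shRNA) and 8436870 (control) expected counts, over 18303 and 18336 listed genes.

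Sizes below are log2 ratios of FPKM + 1, FZD2 shRNA over control, and a gene is called higher or lower at a ratio of 1 or more in size, which is 2-fold. Intervals in parentheses are 95% intervals of the ratio of read counts. They are on the log2 scale, so an interval below 0 is a count ratio below 1. They compare these 2 libraries, take each read as independent and cover counting error only. A gene whose expected count was not whole in at least 1 of the libraries is said to have shared reads. Some of its reads were divided among genes, and its value is less certain.

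The target checked the labels. FZD2, which has shared reads, was at 15.76 FPKM with the FZD2 shRNA and 59.45 FPKM in the control (-1.85). Of 12 hepatocyte markers, 2 were measured, the fibrinogen genes FGB and FGG (summed level 228.66 and 192.39 FPKM, FGB with shared reads). ALB was at 0.05 FPKM with the FZD2 shRNA, and APOB and TTR were listed in neither library. The growth protocol calls the cells prostate, and 4 of 9 prostate markers were measured, summing to 15.25 and 12.37 FPKM, with KLK3 unlisted. Of 8 leukocyte markers 4 were measured (94.23 and 27.74 FPKM, of which LYZ, with shared reads, held 71.47 and 12.31 FPKM, and with CD3E unlisted), of 6 endothelial markers 1 (PECAM1, 2.33 and 0.41 FPKM, with shared reads, and VWF unlisted), of 5 plasma cell markers 1 (SDC1, 12.6 and 10.23 FPKM, with JCHAIN unlisted) and of 8 fibroblast and stellate cell markers 5 (345.67 and 438.94 FPKM). The part of these markers in the values below was not tested.

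The unfolded protein response matches the folding capacity of the ER to its load. When unfolded proteins accumulate, the membrane sensors IRE1, PERK and ATF6 signal to the nucleus: IRE1 splices XBP1 mRNA, PERK slows translation and favours ATF4, and ATF6 is cut in the Golgi to free a transcription factor. Their targets include chaperones, disulfide enzymes and the machinery of ER-associated degradation (ERAD), which returns misfolded proteins to the cytosol for the proteasome. Liver cells secrete much protein, and hepatocytes are known for a large ER. Gene-level values measure mRNA alone, so the splicing of XBP1, the phosphorylation of the kinases and the cleavage of ATF6 were not measured.

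Many targets carry the ER stress response element (ERSE) in the promoter, a site read by NF-Y with ATF6 or XBP1. The ERSE was searched as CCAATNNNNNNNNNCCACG, the related ERSE-II as ATTGGNCCACG and a core bound by XBP1 and ATF6 as TGACGTGG, on both strands, from 250 bases before to 50 bases after each start in RefSeq promoters (GRCh38.p14). Of the 29 members with a promoter in that table, 8 held the ERSE and 3 the ERSE-II in any of their promoters. Over all 27305 genes with a promoter there, the shares were 0.0916% and 0.0696%. The core was in 1 member, HYOU1, where it overlaps an ERSE-II, and in 0.927% of genes. Among 85 other genes of the ER pathway with a promoter, 0 held the ERSE, 0 the ERSE-II and 11 the core. The members were chosen by name as genes of a response whose targets often carry the element, so their share is not an independent result. A match is a string of letters and does not show binding.

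The upstream stretch of HSPA5, the gene of the chaperone BiP, is shown because it is the standard example of the element. The match is at positions -66 to -48 from the start. It is shown within the 150 bases before the start (GRCh38.p14, chr9:125241344-125241493, minus strand), with the fixed letters of the ERSE in capitals.
HSPA5: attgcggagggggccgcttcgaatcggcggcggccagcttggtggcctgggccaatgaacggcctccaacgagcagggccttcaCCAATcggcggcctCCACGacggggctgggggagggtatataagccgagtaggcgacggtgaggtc

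The matched sites of the other members follow, to show that genes with nearly the same element had different ratios. Each is written in the direction of the element, with the fixed letters in capitals and 10 flanking bases on each side where the window holds them. Coordinates are GRCh38.p14. The ERSE matches on the strand of the gene were XBP1 (chr22:28800593-28800631), PDIA6 (chr2:10812843-10812881), CANX (chr5:179698768-179698806) and the first of HSP90B1 (chr12:103930206-103930244).
XBP1: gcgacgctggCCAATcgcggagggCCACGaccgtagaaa
PDIA6: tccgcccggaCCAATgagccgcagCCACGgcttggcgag
CANX: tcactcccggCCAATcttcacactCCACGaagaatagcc
HSP90B1, first: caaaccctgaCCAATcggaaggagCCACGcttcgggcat

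The ERSE matches on the opposite strand were the second of HSP90B1 (chr12:103930311-103930349), CALR (chr19:12938374-12938412), CRELD2 (chr22:49918544-49918582) and ERO1B (chr1:236282173-236282208).
HSP90B1, second: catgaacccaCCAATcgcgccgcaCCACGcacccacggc
CALR: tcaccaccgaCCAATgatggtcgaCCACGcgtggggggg
CRELD2: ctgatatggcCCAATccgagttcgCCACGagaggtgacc
ERO1B: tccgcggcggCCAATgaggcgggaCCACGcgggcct

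The ERSE-II matches were in HYOU1 (chr11:119057264-119057294 and chr11:119057370-119057400), SDF2L1 (chr22:21642104-21642134) and HERPUD1 (chr16:56932015-56932045).
HYOU1, near: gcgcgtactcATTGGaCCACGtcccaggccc
HYOU1, far: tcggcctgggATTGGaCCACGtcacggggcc
SDF2L1: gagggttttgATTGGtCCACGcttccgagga
HERPUD1: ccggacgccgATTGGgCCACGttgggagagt

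The 8 genes with an ERSE ran from -0.98 (XBP1) to 0.52 (CRELD2) with a median of -0.27, and 5 of the 8 were below 0. The 3 genes with an ERSE-II were HYOU1 at -1.37, HERPUD1 at -0.51 and SDF2L1 at 0.45. The 18 members with an exact match of neither had a median of -0.22, from -1.41 to 0.62. Members with an exact match thus lay on both sides of 0, as did those without one. The search does not find variants of the elements, so members without a match may still carry one.

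**Figure D1:**
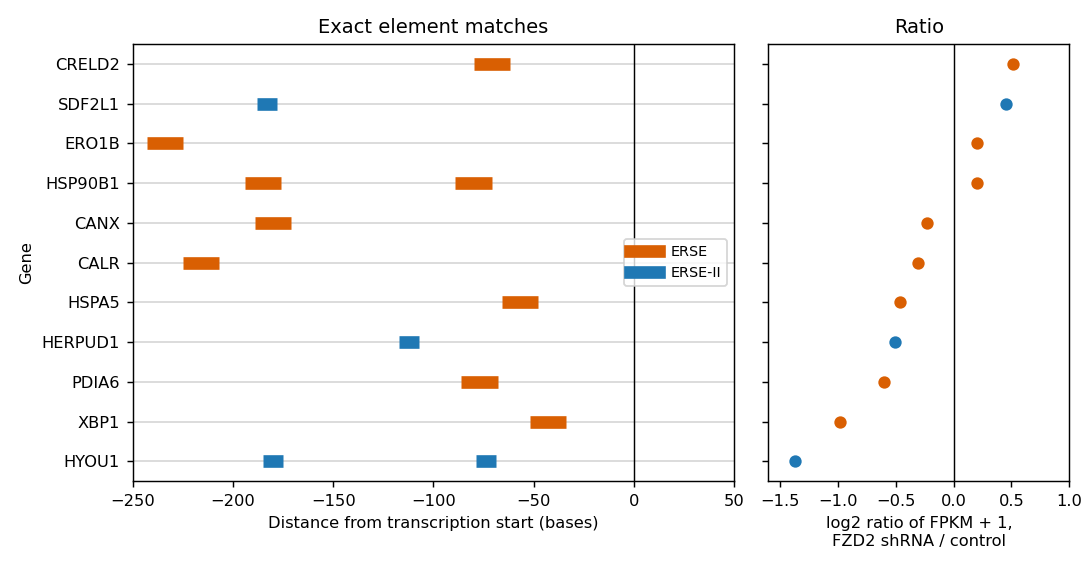
Exact matches of the ERSE and the ERSE-II by distance from the transcription start in bases (left; orange and blue bars span the match, and CANX is drawn from 1 of its 3 annotated starts), beside the log2 ratio of FPKM + 1 of each gene (right; 1 point per gene, 1 library per group). The ratios run from -1.37 for HYOU1 to 0.52 for CRELD2.

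As a set, the members leaned lower in the FZD2 shRNA library. Of 32, 3 were called lower (9.38%) and 0 higher, against 7.41% lower and 15.2% higher among all measured genes, so the lower count was close to the background. The median ratio was -0.33, against -0.004 over all measured genes. Of the 32, 21 were below 0 (65.6%), against 50.1% of all measured genes. In TPM the medians were -0.17 and 0.14. A trend of the ratio with transcript GC content was also taken out with its median kept, so a gene on the trend stands below 0. On that scale the medians were -0.22 and -0.099. The counting interval lay below 1 for 18 members (background 36.8%) and above 1 for 8 (background 35.5%), and it included 1 for 6.

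The background itself differed by read sharing. Among the 24 members with whole counts the median was -0.38 with 3 called lower (12.5%), beside -0.25 and 10.2% over the 8154 measured genes with whole counts. Of these 24, 75% had ratios below 0 and 62.5% intervals below 1, beside 64.7% and 48.1% of such genes. The 8 members with shared reads had a median of 0.03, beside 0.48 over the 6223 measured genes with shared reads. Of these members 0 were called, beside 29.7% higher and 3.71% lower among such genes. Their ratios were below 0 for 37.5% and their intervals below 1 for 37.5%, beside 31.0% and 21.9% of such genes. In both classes the member median was below that of the genes of the same class, a difference that was not tested. In reads, the members took 0.647% of the FZD2 shRNA library (95% Wilson interval 0.642% to 0.653%) and 0.802% of the control library (0.796% to 0.808%).

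**Figure D2:**
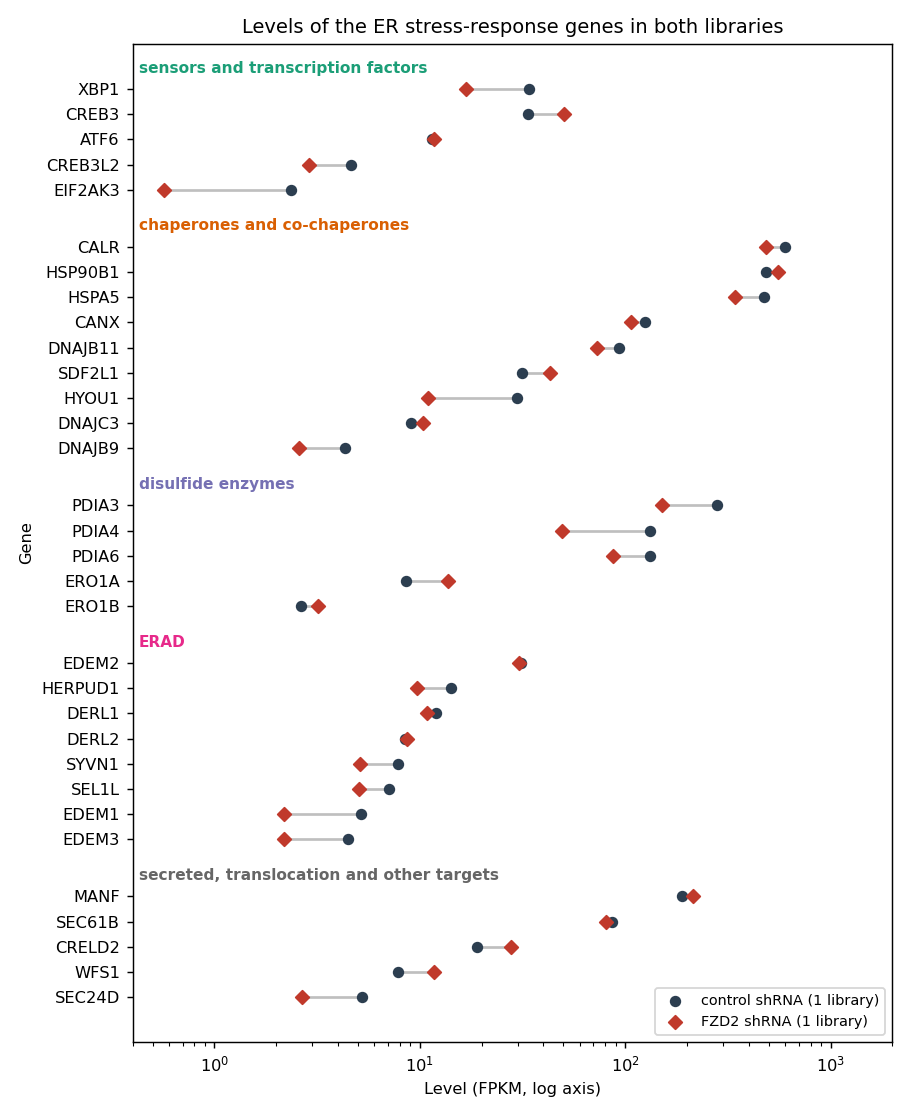
Level of each of the 32 members in FPKM (log axis) in the control library (dark circles) and the FZD2 shRNA library (red diamonds), grouped by role, 1 library per group. CALR, HSP90B1 and HSPA5 lie above 300 FPKM in both libraries, and EIF2AK3 and HYOU1 show long gaps to the left.

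Sensors and transcription factors had mixed values. EIF2AK3, which encodes the translation-slowing kinase PERK, was at 0.57 FPKM against 2.35 FPKM in the control, with 20 and 87 reads. It was called lower at -1.09, and its count log2 ratio was -2.09 (-2.87 to -1.37). The call rests on few reads and was lost at -0.40 with a pseudocount of 5 and at -0.91 with the GC trend taken out. XBP1, the transcription factor activated by IRE1 splicing, was at 16.74 FPKM against 34.02 FPKM, a ratio of -0.98 that fell just short of 2-fold. On counts, 251 against 524, its log2 ratio was -1.03 (-1.25 to -0.81). Both genes had whole counts, and both counting intervals lay below 1.

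ATF6, the sensor released by proteolysis, differed by less than its counting error. It was at 11.77 FPKM against 11.45 FPKM, with a count log2 ratio of 0.04 (-0.11 to 0.18) and shared reads. Relative to ATF6, XBP1 counts were 2.09-fold lower with the FZD2 shRNA, a comparison within libraries that does not depend on library size (log2 -1.06, -1.32 to -0.80). With the GC trend taken out, XBP1 was at -0.94 and ATF6 at 0.22. That trend was fitted on genes with whole counts, so the value of ATF6 rests on a trend from the other class. CREB3 and CREB3L2, membrane-bound transcription factors of the ATF6 type, differed in direction. CREB3 was at 50.52 FPKM against 33.63 FPKM (0.57), with an interval above 1, while CREB3L2 was at 2.88 against 4.63 FPKM (-0.54), with one below. CREB3L2 was counted over a shorter mean transcript in the FZD2 shRNA library, 6509.94 against 6915.84 bases, and its count log2 ratio was -0.77 (-1.07 to -0.49). The 5 measured sensors and factors had a median of -0.54, or 0.04 over the 3 that reached 5 FPKM.

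The chaperones held the 3 most abundant members, CALR, HSP90B1 and HSPA5. HSPA5, the ER Hsp70 that also holds the sensors inactive, was at 343.97 FPKM against 475.85 FPKM (-0.47; counts -0.51 to -0.44). HSP90B1, the ER Hsp90, was at 557.53 FPKM against 485.1 FPKM (0.20; counts 0.16 to 0.23). Both have shared reads. HSP90B1 was the higher of the pair in both libraries, by more with the FZD2 shRNA: the ratio of HSPA5 to HSP90B1 in FPKM was 0.617 with the FZD2 shRNA and 0.981 in the control.

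HYOU1, which encodes the nucleotide exchange factor GRP170 that resets HSPA5, was the only chaperone called lower. It was at 10.91 FPKM against 29.73 FPKM, 2.73-fold lower, with whole counts of 412 and 1160 (-1.37; counts -1.62 to -1.29). It remained called under all 8 scales tried, between -1.53 and -1.13. Relative to HSPA5, HYOU1 counts were 1.98-fold lower with the FZD2 shRNA (log2 -0.99, -1.15 to -0.82).

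The J-domain co-chaperones, which deliver clients to HSPA5, had 2 values below 0 and 1 above. DNAJB9 was at 2.57 FPKM against 4.3 FPKM (-0.57), DNAJB11 at 73.29 against 93.66 FPKM (-0.35) and DNAJC3, which has shared reads, at 10.41 against 9.05 FPKM (0.18). SDF2L1, which forms a complex with DNAJB11, went the other way, at 43.2 FPKM against 31.31 FPKM (0.45). Relative to DNAJB11 its counts were 1.76-fold higher (log2 0.82, 0.54 to 1.09). SDF2L1 has the most GC-rich transcript of the members, 65.5% GC, and its ratio was -0.08 with the GC trend taken out. DNAJB11, at 46.4% GC, was at -0.21 on that scale. The trend stood at 0.21 for the GC content of SDF2L1 and at -0.47 for that of DNAJB11. The part of GC content in the count comparison of this pair was not tested.

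The lectin chaperones of glycoprotein folding were both slightly lower, with intervals below 1. CALR, calreticulin, was at 482.4 FPKM against 598.52 FPKM (-0.31, or -0.15 in TPM), and CANX, its membrane-bound relative calnexin, at 106.66 against 125.04 FPKM (-0.23, or -0.07 in TPM and -0.04 with the GC trend taken out). The trend stood at -0.21 for the GC content of CALR and at -0.51 for that of CANX, and CALR was at -0.43 with it taken out. All 9 chaperones and co-chaperones were measured, with a median of -0.31, and 6 had intervals below 1 and 3 above.

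Of the 5 disulfide enzymes, 1 was called lower and 0 higher. The 3 disulfide isomerases had ratios below 0, each with an interval below 1. PDIA4, also called ERp72, was at 49.34 FPKM against 132.54 FPKM, 2.69-fold lower, with whole counts of 1217 and 3358 (-1.41; counts -1.53 to -1.33), and it was called under all 8 scales (-1.49 to -1.26). PDIA3, or ERp57, which works with the lectins on glycoproteins and has shared reads, was at 151.56 against 280.64 FPKM (-0.88), and PDIA6 at 86.96 against 132.48 FPKM (-0.60). The difference of PDIA4 was the largest in size among the 32 members on the FPKM + 1 scale. Relative to CALR, PDIA3 counts were 1.49-fold lower, and relative to CANX 1.57-fold lower.

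The 2 oxidases that recharge the isomerases had ratios above 0. ERO1A was at 13.79 FPKM against 8.61 FPKM (0.62; counts 0.49 to 0.86), the highest ratio of the members, with shared reads, a class whose median over all measured genes was 0.48. ERO1B was at 3.21 FPKM against 2.65 FPKM (0.21; counts -0.09 to 0.65), so its difference was within counting error. The PDIA4 to ERO1A ratio in FPKM was 3.58 with the FZD2 shRNA and 15.4 in the control, a 4.30-fold difference in counts (log2 -2.11, -2.31 to -1.90). PDIA4 and ERO1A had the lowest and highest ratios of the members, and the pair was chosen after these were seen. The large size of this difference follows from that choice. PDIA4 had whole counts and ERO1A shared reads. The summed level of the 5 disulfide enzymes was 304.86 FPKM against 556.92 FPKM, and they took 0.0915% of reads (0.0894% to 0.0936%) against 0.164% (0.162% to 0.167%).

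**Figure D3:**
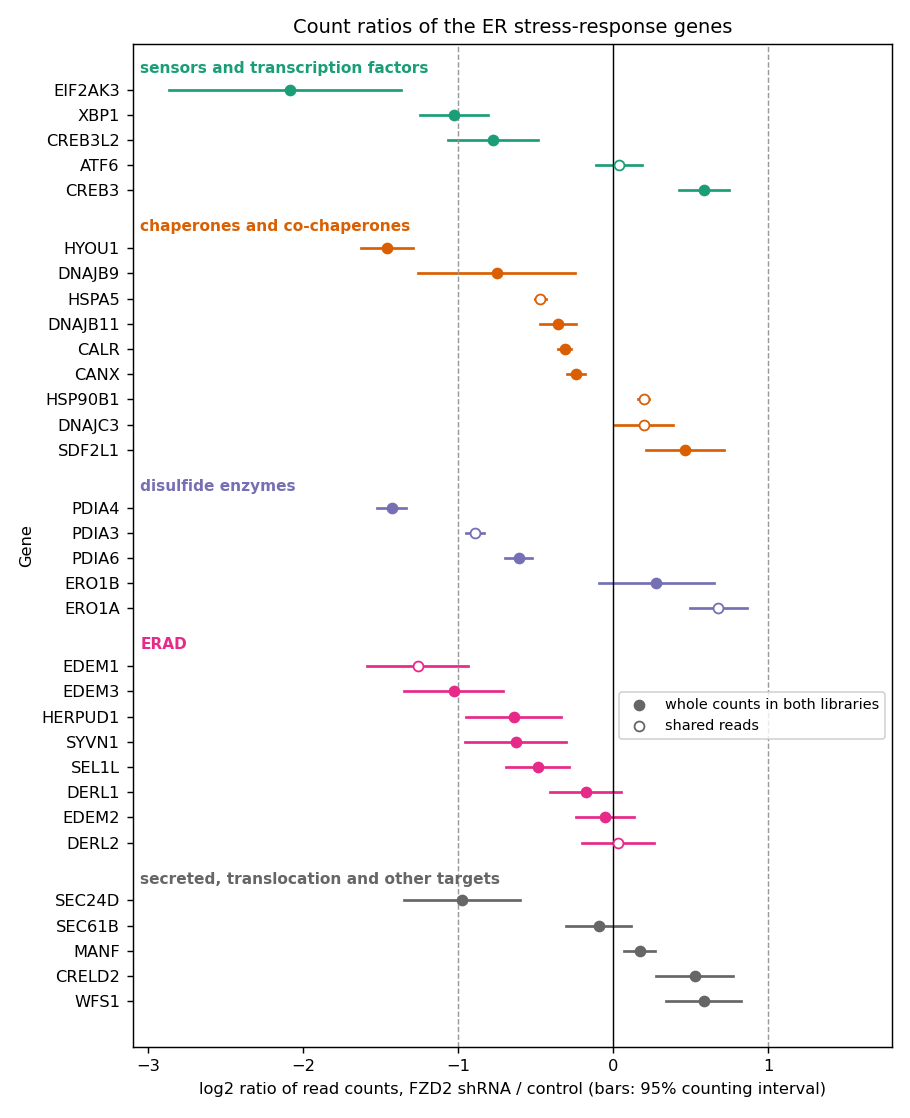
Log2 ratio of read counts, FZD2 shRNA over control, for each of the 32 members, with 95% counting intervals (bars), grouped and coloured by role. Open circles are genes with shared reads, and dashed lines mark 2-fold. The intervals of 18 members lie left of 0, 8 lie right of it and 6 cross it.

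Of the 8 measured ERAD genes, 7 had ratios below 0 and 0 passed 2-fold. Ratios were below 0 for 50.1% of all measured genes and for 64.7% of those with whole counts. EDEM1 and EDEM3, mannosidase-like proteins that mark misfolded glycoproteins, were at 2.18 against 5.2 FPKM (-0.96) and 2.19 against 4.45 FPKM (-0.77). On counts, their log2 ratios were -1.26 (-1.59 to -0.94, shared reads) and -1.03 (-1.35 to -0.71). Their relative EDEM2, in contrast, was at 30.29 against 31.13 FPKM (-0.04, with a sign that changed with the scale; counts -0.24 to 0.13). Relative to EDEM2, EDEM1 counts were 2.31-fold lower (log2 -1.21, -1.57 to -0.84).

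SYVN1, SEL1L and HERPUD1, 3 of the genes of the membrane ligase complex, were each lower by less than 2-fold. SYVN1, the ubiquitin ligase HRD1, was at 5.09 FPKM against 7.86 FPKM (-0.54), SEL1L, its adaptor, at 5.05 against 7.07 FPKM (-0.42), and HERPUD1, which recruits it, at 9.71 against 14.22 FPKM (-0.51). All 3 had whole counts and intervals below 1. The SEL1L to SYVN1 ratio was 0.992 and 0.899, a difference within counting error (log2 0.14, -0.23 to 0.52). With the GC trend taken out, SEL1L was at -0.22, SYVN1 at -0.83 and HERPUD1 at -0.41. The derlins, which help move substrates through the membrane, differed by less than counting error: DERL1 was at 10.81 against 12.01 FPKM (-0.14, with a sign that changed with the scale) and DERL2 at 8.65 against 8.46 FPKM (0.03, shared reads), with intervals that included 1. The ERAD median was -0.46, or -0.32 with the GC trend taken out, a scale on which the median of all measured genes was -0.099. Of the 8 intervals 5 lay below 1 (62.5%) and 0 above. The share below 1 was 36.8% over all measured genes and 48.1% over those with whole counts.

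The remaining targets had the only role median above 0, at 0.17, or 0.04 with the GC trend taken out and 0.33 in TPM. CRELD2, a secreted ER stress protein, was at 27.66 FPKM against 19.04 FPKM (0.52), WFS1, an ER membrane protein involved in calcium balance, at 11.73 against 7.81 FPKM (0.53), and MANF, a secreted survival factor, at 213.35 against 189.08 FPKM (0.17). Their intervals lay above 1. CRELD2, WFS1 and MANF were at 0.18, 0.14 and 0.04 with the GC trend taken out, a scale on which a gene on the trend stands below 0. The trend itself stood at 0.01, 0.07 and -0.19 for their GC contents, below the ratio of each gene. SEC61B, a subunit of the translocation channel, was at 80.51 against 85.8 FPKM (-0.09, with a sign that changed with the scale), within counting error. SEC24D, a cargo-binding subunit of the COPII coat that carries proteins out of the ER, was at 2.66 against 5.21 FPKM (-0.76; counts -1.35 to -0.60).

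Transcript GC content moved with the ratios among genes with whole counts, members included. Over 7999 measured genes with whole counts, Spearman's rho was 0.37, and the median ratio ran from -0.54 in the lowest of 10 GC bins to 0.23 in the highest. Over the 24 members with whole counts rho was also 0.37 (Pearson's r 0.37), and over all 32, with the 8 that have shared reads, it was 0.06 (r 0.15). These describe genes that share the same libraries. The trend stood at -0.16 for the GC content of HYOU1 (55.2%), at -0.24 for that of PDIA4 (53.0%) and at -0.51 for that of EIF2AK3 (42.5%), above the ratio of each gene. With the trend taken out and its median kept, HYOU1 was at -1.53, PDIA4 at -1.49 and EIF2AK3 at -0.91.

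**Figure D4:**
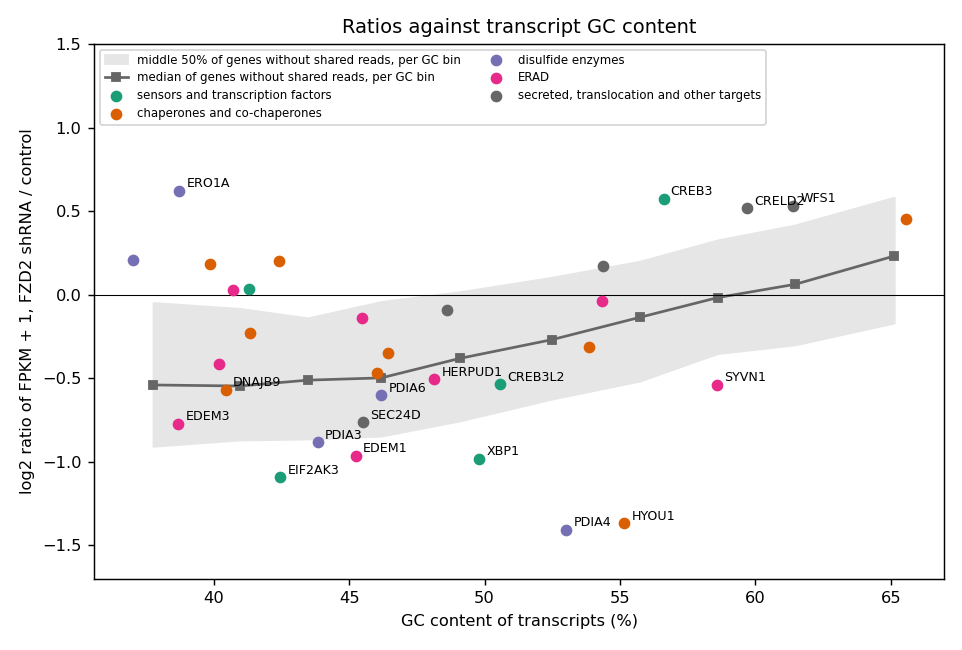
Log2 ratio of FPKM + 1 against GC content of transcripts in percent, for the 32 members (points coloured by role) over the median and middle 50% of measured genes with whole counts in 10 GC bins (grey). PDIA4 and HYOU1 lie below the grey band at 53.0% and 55.2% GC. ERO1A lies above it at 38.7%, but has shared reads, unlike the genes of the band.

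Genes of the same pathway that are not members were given by 7 lists with 98 genes, of which 96 were measured. Of these, 9 were called lower and 3 higher, with a median of -0.22. The background shares of 7.41% and 15.2% apply here as well. In the PERK arm, PPP1R15A, the phosphatase subunit that restores translation, was at 40.52 FPKM against 100.42 FPKM (-1.29), and CHAC1 at 0.77 against 3.73 FPKM (-1.42, on 11 and 59 reads, or -0.60 with a pseudocount of 5). The 12 genes of that arm had a median of -0.43, with 2 lower and 0 higher.

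RTCB, the RNA ligase that joins the XBP1 exons cut by IRE1, was called lower, at 17.86 FPKM against 43.95 FPKM (-1.25; counts -1.50 to -1.11). ATF6B, the relative of ATF6, was at 9.09 against 16.33 FPKM (-0.78). With these, the list of sensor processing genes had 1 of 7 lower and 0 higher (median -0.43).

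The other folding factors had 2 lower and 2 higher of 22 (median -0.27). TXNDC12, a small ER thioredoxin with shared reads, was at 19.32 against 53.7 FPKM (-1.43), and FKBP7, a prolyl isomerase, at 1.62 against 4.6 FPKM (-1.10, or -0.54 with a pseudocount of 5 and -0.90 with the GC trend taken out). TXNDC11 was higher at 20.94 against 7.39 FPKM (1.39), with a mean transcript of 2228.96 against 2620.88 bases, and FKBP14, a prolyl isomerase with shared reads, at 29.18 against 12.7 FPKM (1.14, or 0.95 with a pseudocount of 5). The counting intervals of the list lay below 1 for 12 of the 22 genes and above 1 for 9.

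Of 20 other ERAD genes, 1 was higher and 0 lower (median -0.02, or 0.14 in TPM). FBXO6, a glycoprotein-binding ligase subunit with shared reads, was at 37.61 against 9.38 FPKM (1.90), and UBE2J1, a ubiquitin-conjugating enzyme of the ER membrane, at 7.43 against 15.83 FPKM (-0.997, just short of 2-fold). Of 16 translocon and signal peptidase genes, SRPRA, the signal recognition particle receptor, was called lower at 9.62 against 21.76 FPKM (-1.10, or -0.87 with a pseudocount of 5 and -0.98 in TPM), and SEC62 was at 37.73 against 21.2 FPKM (0.80, shared reads). The median was -0.13, or 0.03 in TPM.

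The oligosaccharyltransferase, which attaches glycans, had 1 of 8 subunits lower. OSTC was at 28.31 against 60 FPKM (-1.06, shared reads, or -0.91 in TPM and -0.87 with the GC trend taken out), while DAD1 was at 150.92 against 94.58 FPKM (0.67), and the median was -0.11, or 0.05 in TPM. The COPII coat had the lowest median of the 7 lists, -0.60, with 2 of 11 lower and 0 higher. SEC23B was at 7.39 against 19.57 FPKM (-1.29, or -0.99 with a pseudocount of 5) and SEC23A at 9.48 against 20.33 FPKM (-1.03, or -0.90 in TPM, -0.81 with a pseudocount of 5 and -0.84 with the GC trend taken out). Both encode the coat subunit that pairs with SEC24 proteins, among them the member SEC24D.

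**Figure D5:**
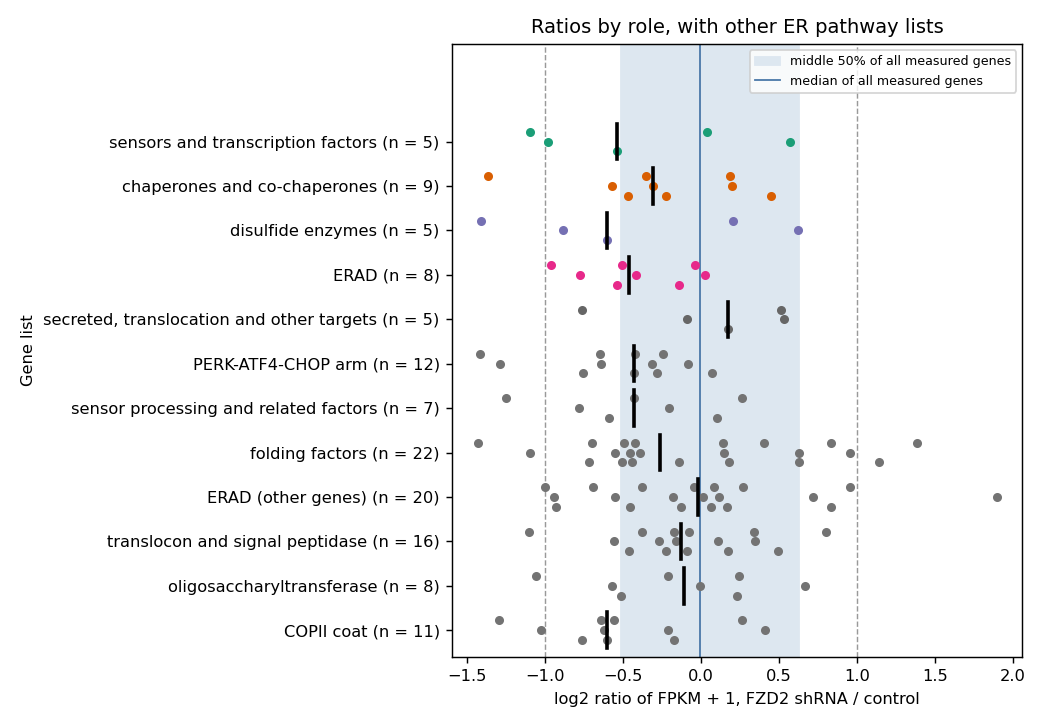
Log2 ratio of FPKM + 1 for each measured gene (points), by role of the members (coloured) and by list of other ER pathway genes (grey), with list medians (black bars) over the median and middle 50% of all measured genes (blue). The medians run from -0.60 for the disulfide enzymes and for the COPII coat to 0.17 for the secreted and other targets.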

How the data were processed

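One RNA library per group was compared, so no test of the conditions was possible. The authors deposited an expected count for each gene, an estimate that is not whole where reads were shared, with no normalization. The FPKM values, per the file headers, are scaled by the authors to transcript length and library size. Bowtie2, HISAT and hg19 are named in the submitters' processing notes, with no version or role. Which counter, gene annotation and strandedness were used is, in the sources used here, not given. Gene lengths, per the file headers, differ between libraries where transcripts were mixed, which moves FPKM.

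Genes unlisted in a file were set to 0. All 180 symbols of the lists were matched to gene identifiers through the RefSeq table. The members and lists were chosen with earlier results of these data known. Named genes are all members, FZD2, markers, and from each other list the genes past 2-fold and the 2 largest in size. The 9 pairs of partner genes were chosen after their values were seen, and their intervals are normal approximations on the log scale. The pair comparisons were not adjusted for GC content.

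The main ratio used a pseudocount of 1 FPKM, a minimum of 1 FPKM and no further scaling, and understates differences of low genes. Counts were rounded for the exact conditional binomial interval (95%), scaled to library totals. A count was whole within 0.001. Both rules were tested on simulated data. PCR copies are not independent molecules, so intervals can be too narrow.

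Alternatives were pseudocounts of 0.1 and 5 FPKM, no filter, a filter of 5 FPKM, TPM, counts as CPM, the median set to 0, TMM scaling, limits of 1.5-fold and 4-fold, genes with whole counts, and a lowess trend on GC (fraction 0.3) taken out with its median kept. The GC trend was fitted on genes with whole counts and applied to all, so its values for genes with shared reads are less certain. GC content came from GENCODE 29 transcripts matched by RefSeq accession for 96.1% of measured genes. Mitochondrial ribosomal RNA took 3.88% of the FZD2 shRNA library and 8.31% of the control, and TPM raised the median of all genes by 0.14. Promoter sequences are RefSeq's. Protein C termini were not analysed here. The work used edgeR 4.0.16 in R 4.3.3 (for TMM factors), and SciPy 1.17.1, pandas 2.3.3, statsmodels 0.14.6, NumPy 2.4.6 and matplotlib 3.10.9 in Python 3.11.15.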

Additional observations from a re-analysis of the deposited data

How the results depend on the processing

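Each group held 1 library, so no replicate could be left out. No paired analysis was possible because each group held 1 sample. HYOU1 and PDIA4 stayed past 2-fold under all 8 scales. Of the 32 members, 18 were below 0 and 10 above 0 under all 8, and 4 changed sign (SDF2L1, EDEM2, DERL1 and SEC61B). The 3 members called lower became 5 with a pseudocount of 0.1 FPKM and 5 with counts as CPM, where 12.2% and 10.1% of all measured genes were lower. At a limit of 1.5-fold, 9 members were lower and 1 higher (all genes 21.7% and 26.1%), and at 4-fold 0 and 0 (0.41% and 2.66%). The member median of -0.33 was -0.17 in TPM, -0.22 with the GC trend taken out and -0.23 with a filter of 5 FPKM. All measured genes under the same settings had medians of 0.14, -0.099 and -0.007. The counting-interval counts were the same with TMM, the one alternative run for them.

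The sensor median of -0.54 was -0.29 with a pseudocount of 5 FPKM, -0.31 with no filter, 0.0366 with a filter of 5 FPKM (3 genes) and -0.76 on genes with whole counts. The chaperone median was -0.15 in TPM. The disulfide enzyme median was -0.45 in TPM, -0.45 with the GC trend taken out and -0.74 with a filter of 5 FPKM (4 genes). Of the 96 other pathway genes, 6 were higher in TPM (20.3% of all measured genes), 5 with the GC trend taken out (14.0%), 1 with whole counts (4.19% of such genes), 12 at 1.5-fold and 0 at 4-fold. Of the same genes, 3 were lower with a pseudocount of 5 FPKM (2.09% of all measured genes), 24 at 1.5-fold and 0 at 4-fold. The causes of these moves were not tested. Depth limits EIF2AK3 most, at 20 and 87 reads.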
